A study of Mus musculus with 6 samples.

Results

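The 10 genes studied here encode the main parts of the desmosome and were followed through mouse esophageal organoids: the cadherins Dsg1a, Dsg2, Dsg3, Dsc1, Dsc2 and Dsc3, the armadillo proteins Jup, Pkp1 and Pkp3, and desmoplakin, Dsp. They were chosen by name and are 10 of the 32285 genes in each deposited table. Epithelial cells from the esophagus of C57BL6 mice were sorted as integrin-b1 positive and DAPI negative, so both groups were taken from the integrin-b1 gate, and then by low or high staining with Cyto-ID, a dye of autophagic vesicles. The Cyto-ID Low and the Cyto-ID High cells were each grown in Matrigel as organoids for 15 days, and the dissociated organoids were profiled by droplet 3′ single-cell RNA sequencing with unique molecular identifiers (UMIs). Each group has 3 libraries, labelled F2, M3 and F6 in both. The sort was made on the cells that were seeded, 15 days before the cells measured here were collected, and the age given in the labels, also 15 days, equals that culture time. No label says that the 3 libraries of a group came from separate animals or cultures. P-values for the Cyto-ID groups thus measure only the spread between these libraries. Those for comparisons of cells within libraries measure only how much the change varies over these libraries.

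Desmosomes are the spot-like junctions that hold epithelial cells together under mechanical load. Desmogleins (Dsg) and desmocollins (Dsc) are cadherins that bind those of the neighbouring cell. Plakoglobin (Jup) and the plakophilins (Pkp) bind the cadherin tails, and desmoplakin ties this plaque to the keratin filaments. In stratified epithelia the cadherin isoforms are known to change between the basal layer, marked by Krt14, and the layers above it, which in the esophagus are marked by Krt13. Dsg2 and Dsc2 are also the isoforms of simple epithelia, and Dsg3 is the target of the autoantibodies of pemphigus vulgaris.

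In the mouse genome (GRCm38) Pkp1 lies at chr1:135871395-135919207 (minus strand), Pkp3 at chr7:141078218-141090510 (plus strand), Jup at chr11:100368958-100397763 (minus strand) and Dsp at chr13:38151294-38198577 (plus strand). Jup and Dsp, plaque genes that link the cadherins to keratin, were the only 2 of the 10 genes with an entry in the RefSeq promoter table (GRCm38.p6). For that reason the 200 bases before their start are shown, 5′ to 3′ on the gene's strand. The start is that of the RefSeq table, and the gene positions above are GENCODE's. The windows are chr11:100397840-100398039 for Jup, with 76 bases between it and the GENCODE start, and chr13:38151094-38151293 for Dsp, which ends at that start. Capitals mark matches on either strand to the hexamer GGGCGG, known as the GC box, and to the letters CCAAT of the box of that name. No match overlaps another.
Jup: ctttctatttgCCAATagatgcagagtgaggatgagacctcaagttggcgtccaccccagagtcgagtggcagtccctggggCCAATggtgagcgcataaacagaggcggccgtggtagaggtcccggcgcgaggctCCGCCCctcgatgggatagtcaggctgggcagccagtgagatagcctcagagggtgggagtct
Dsp: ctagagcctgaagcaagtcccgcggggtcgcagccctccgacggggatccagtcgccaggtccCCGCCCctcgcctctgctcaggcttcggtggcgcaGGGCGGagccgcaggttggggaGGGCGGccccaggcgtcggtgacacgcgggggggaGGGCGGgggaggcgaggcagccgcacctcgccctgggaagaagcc
The Jup window held 1 GC box and 2 CCAAT boxes, and the Dsp window held 4 GC boxes and no CCAAT box. Neither held an AP-1 site (TGACTCA) or a TATA box (TATAAA). Of 32851 promoter windows of 200 bases, 31.0% held the GC box, 29.3% the CCAAT box, 9.96% the TATA box and 3.66% the AP-1 site.

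Of 26808 cell barcodes, the 25154 with 500 or more detected genes were kept, 2667 to 5617 per library. Libraries held 8457489 to 48957523 UMIs in all. Median UMIs per kept cell ran from 1941 (High F6) to 10038 (High F2), and any pair of libraries shared 0 to 10 barcode sequences. Squamous markers summed to between 4851 and 5167 CPM (UMIs of a gene scaled to the same total in every cell) in the Low libraries and between 3579 and 4764 CPM in the High libraries. The fibroblast, endothelial, immune and melanocyte sums were at most 4.95, 1.42, 0.196 and 1.19 CPM, with Col3a1, Cdh5, Ptprc, Tyrobp and Dct at 0. The muscle sum (Acta2, Myh11 and Des) was higher, at 4.49 to 14.3 CPM over all cells with no gene of the 3 at 0, and up to 22.5 CPM in Krt14-dominant cells, where Des was at 0. Cells were placed along the keratin axis by the share of Krt13 in their Krt13 and Krt14 UMIs, given at least 10 such UMIs. The 22799 placed cells fell into ranges called Krt14-dominant (share under 0.1, 11835 cells), Krt14-leaning (0.1 to 0.3, 3652 cells), mixed (0.3 to 0.7, 3521 cells) and Krt13-dominant (0.7 or more, 3791 cells). These layers are ranges of a score and not cell types, and 156 to 399 cells per library lay within 0.02 of the cut at 0.1, 116 to 314 within 0.05 of that at 0.3 and 70 to 155 within 0.05 of that at 0.7. The High F6 library stood apart, with 31.2% of its kept cells unplaced against 1.99% to 12.3% in the others. Krt14-dominant cells made up 48.4% ± 2.91 of placed cells in Low and 54.5% ± 8.19 in High (SD, n = 3; exact permutation p = 0.3), and Krt13-dominant cells 21.8% ± 6.21 and 12.8% ± 2.51 (exact permutation p = 0.2), with adjusted p = 0.6 for both over the 4 layers. The smallest two-sided p that 3 against 3 libraries allow is 0.1.

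Across all kept cells desmoplakin was the most abundant of the 10 messages, and Dsg1a and Dsc1 had the lowest mean levels. The mean level over the 6 libraries was 814 ± 71.7 CPM for Dsp, 368 ± 50.4 for Pkp1, 303 ± 45.4 for Jup and 231 ± 61.9 for Dsg3 (SD, n = 6). Dsc3 (111 ± 34.2 CPM), Pkp3 (110 ± 23.7), Dsc2 (99.5 ± 38.0) and Dsg2 (65.9 ± 20.7) followed. Neighbours in this order from Pkp1 down to Dsg2 overlapped in their ranges over libraries, while Dsp lay above every other gene in all 6. Each 3′ UMI stands for 1 captured molecule, so these levels are not scaled by transcript length. Dsg1a was at 2.55 ± 3.72 CPM (346 UMIs in all) and Dsc1 at 0.205 ± 0.213 CPM, with 73 UMIs in all, 47 of them in High F2. No UMI of either gene was seen in Low F6, which allows up to 0.364 CPM. Dsc1 stayed below the low-value filter (1 CPM in at least 3 samples) in the main fits and entered no test there, so 9 of the 10 genes were tested in them.

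Along the axis most desmosome genes rose from Krt14-dominant to mixed cells, Dsc3 fell in the Krt13-dominant cells, and Dsg2 was lower in mixed than in Krt14-dominant cells. Levels were compared as log2(CPM + 1) with limma over the 24 library and layer values, library as a term, after trimmed-mean (TMM) scaling and, beside it, on plain CPM. Plain CPM reads a gene against all UMIs of its cells, and TMM scaling reads it against the bulk of the genes. Between Krt13-dominant and Krt14-dominant cells the median log2 change of all 12660 genes was -0.14 after TMM scaling and -0.57 in plain CPM. Of the 9 tested genes 7 were higher and 1 was lower in Krt13-dominant cells after TMM scaling, Dsg1a being 1 of the 7 and treated below as a description, against a background in which 64.8% of all genes were called, 28.2% higher and 36.6% lower. In plain CPM 5 were called, 3 higher (Dsc2, Jup and Dsg3) and 2 lower (Dsc3 and Dsg2), where 74% of all genes were called, 15.4% higher and 58.6% lower.

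**Figure D1:**
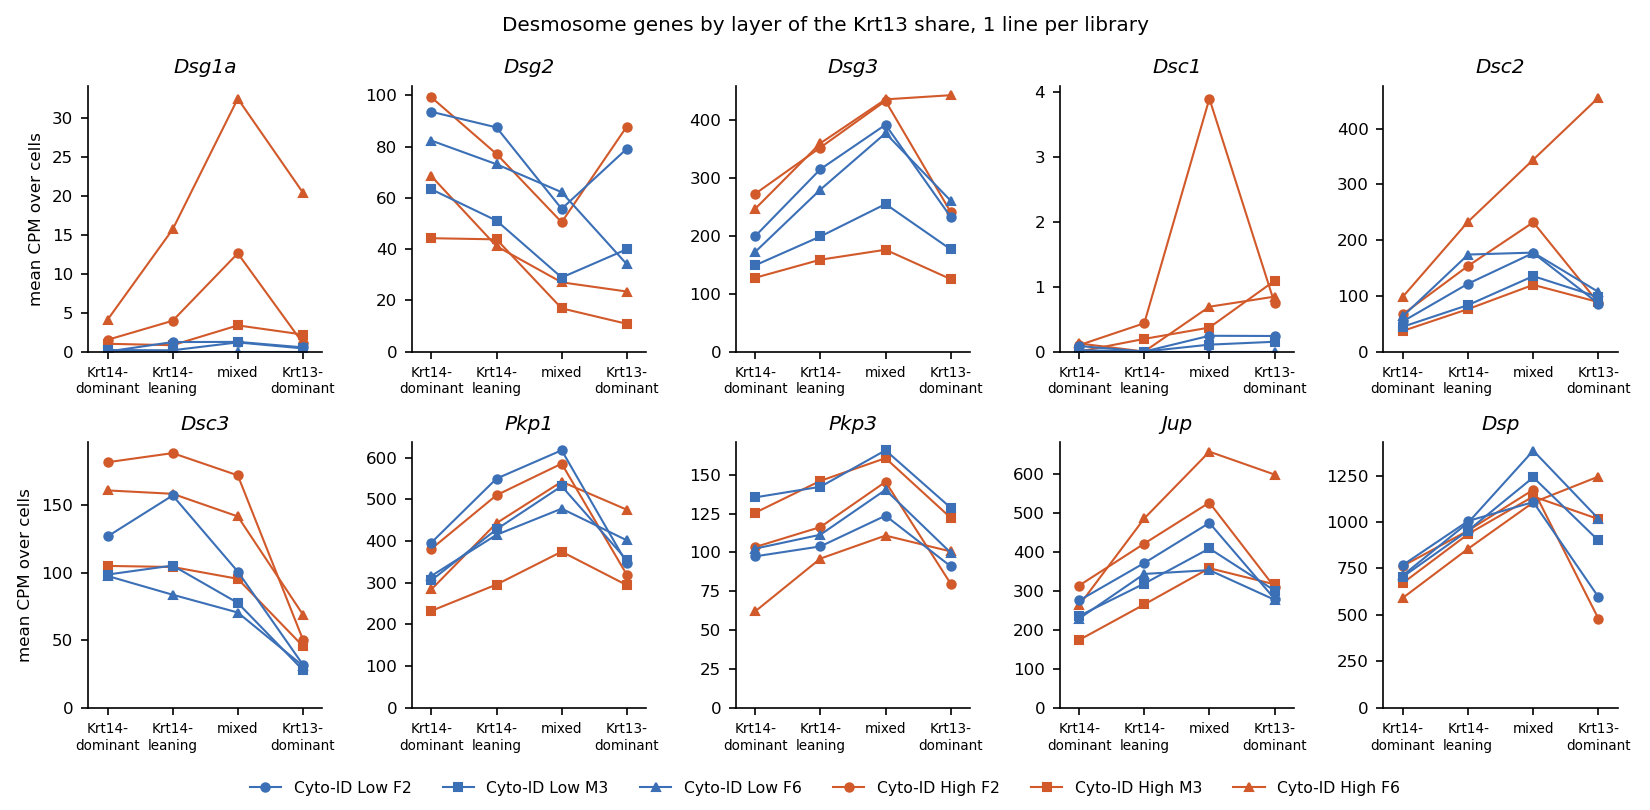
Mean CPM over cells of each desmosome gene (vertical axes, linear from 0) in the 4 ranges of the Krt13 share (horizontal axes), 1 line per library, with Cyto-ID Low in blue and Cyto-ID High in orange. Pkp1, Pkp3 and Jup peak in the mixed range in 6 of 6 libraries, Dsc3 falls to the Krt13-dominant range in all 6, and Dsg1a is near 0 in the Low libraries.

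Among the desmocollins, Dsc2 was higher and Dsc3 lower in Krt13-dominant than in Krt14-dominant cells. The 6 cadherin genes lie in 1 cluster on chromosome 18 (GRCm38), from Dsc3 at 19960930-20002351 on the minus strand to Dsg2 at 20558074-20604521 on the plus strand. In the order F2, M3 and F6 of Low and then of High, Dsc2 was at 54.3, 44.7, 63.6, 67.2, 37.2 and 98.7 CPM in Krt14-dominant cells, at 177, 135, 177, 232, 120 and 344 CPM in mixed cells and at 86.1, 97.8, 107, 87.4, 88.7 and 455 CPM in Krt13-dominant cells. Every library was higher in mixed and in Krt13-dominant than in Krt14-dominant cells, and 5 of 6 were highest in mixed cells, with High F6 the exception. The log2 change after TMM scaling was 1.94 ± 0.13 (SE) from Krt14-dominant to mixed cells (limma, adjusted p = 1.6e-12) and 1.59 ± 0.13 to Krt13-dominant cells (adjusted p = 3.2e-11), and 1.66 and 1.05 in plain CPM.

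Dsc3 is the desmocollin of the basal layers of stratified epithelia. It was at 127, 98.6, 97.5, 182, 105 and 161 CPM in Krt14-dominant cells, at 101, 77.6, 70.5, 172, 95.4 and 142 CPM in mixed cells and at 31.9, 28.0, 31.0, 50.5, 45.6 and 69.0 CPM in Krt13-dominant cells. All 6 libraries were lowest in Krt13-dominant cells, and the ranges of the 6 did not overlap between that layer and mixed or Krt14-dominant cells. The log2 change from Krt14-dominant to Krt13-dominant cells was -1.06 ± 0.09 after TMM scaling (limma, adjusted p = 6.5e-11) and -1.60 in plain CPM. From Krt14-dominant to mixed cells it was 0.02 ± 0.09 after TMM scaling (limma, adjusted p = 0.85) and -0.25 in plain CPM (limma, adjusted p = 0.046), so the scaling decides that call.

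The desmocollin make-up therefore went from mostly Dsc3 to mostly Dsc2 along the axis. Dsc2 made up 29.97%, 31.2%, 39.5%, 27.0%, 26.2% and 38.0% of the summed Dsc1, Dsc2 and Dsc3 CPM in Krt14-dominant cells. In Krt14-leaning cells the share was 50.4% on average (42.2% to 67.5%) and in mixed cells 63.7% (55.5% to 71.6%). In Krt13-dominant cells it was 72.8%, 77.7%, 77.5%, 63.0%, 65.5% and 86.7%. A share within a gene family does not depend on the scaling. The ranges of the 6 libraries did not overlap between Krt14-dominant and Krt14-leaning cells, whereas neighbouring layers above overlapped. Over 9 finer bins of the Krt13 share, chosen after the layer values were seen, with at least 71 cells per library and bin, Dsc2 exceeded Dsc3 in 0 of 6 libraries below a Krt13 share of 0.1. It did so in 2 libraries between 0.1 and 0.2, in 3 between 0.2 and 0.3 and in 6 of 6 in each bin from 0.3 up. The median Dsc2 share went from 29.1% in the lowest bin to 75.9% at 0.95 and above. The median of Dsc2 itself was highest at shares of 0.5 to 0.7 (179 CPM, beside 176 CPM at 0.3 to 0.5) and was 72.1 CPM in the last bin. The Dsc3 median went from 132 CPM at 0.1 to 0.2 to 25.6 CPM in the last bin. Single libraries had their highest Dsc2 in bins between shares of 0.2 and 0.95. High F6 was highest at 0.85 to 0.95 (561 CPM) and still at 363 CPM in the last bin. At the Krt13 end the high Dsc2 share thus stood beside median levels of both genes below those of the bins from 0.3 to 0.7.

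**Figure D2:**
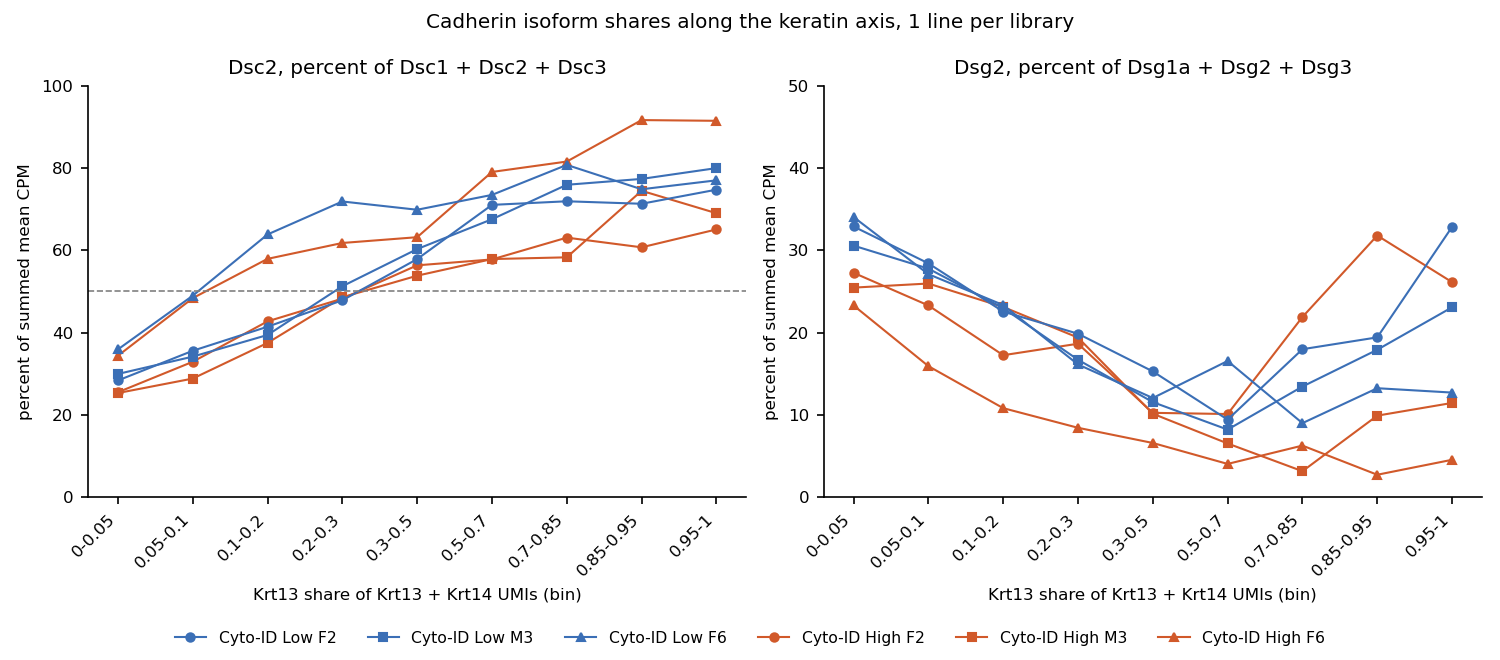
Percent of the summed desmocollin CPM that is Dsc2 (left) and of the summed Dsg1a, Dsg2 and Dsg3 CPM that is Dsg2 (right) in 9 bins of the Krt13 share (horizontal axes), 1 line per library; the dashed line marks 50%. Every library is above 50% Dsc2 from a Krt13 share of 0.3 on, and the median Dsg2 share is lowest, at 8.79%, between 0.5 and 0.7.

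Among the desmogleins, Dsg3 was higher and Dsg2 lower in mixed than in Krt14-dominant cells. Dsg3 was at 200, 149, 172, 273, 128 and 247 CPM in Krt14-dominant, 392, 255, 378, 433, 176 and 436 CPM in mixed and 233, 177, 261, 241, 125 and 443 CPM in Krt13-dominant cells. Every library was higher in mixed than in Krt14-dominant cells, while in plain CPM 4 of 6 were higher in Krt13-dominant than in Krt14-dominant cells. The log2 change to mixed cells was 1.08 ± 0.08 (limma, adjusted p = 4.9e-12) and to Krt13-dominant cells 0.83 ± 0.08 (limma, adjusted p = 4.1e-10) after TMM scaling, and 0.80 and 0.28 in plain CPM.

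Dsg2 was at 93.6, 63.3, 82.3, 99.2, 44.2 and 68.4 CPM in Krt14-dominant cells, at 55.7, 28.9, 62.2, 50.5, 16.9 and 27.0 CPM in mixed cells and at 79.1, 39.9, 34.1, 87.8, 10.8 and 23.4 CPM in Krt13-dominant cells. In plain CPM all 6 libraries were highest in Krt14-dominant cells, while after TMM scaling Low F2 and High F2 were higher in Krt13-dominant cells, by 0.46 and 0.40 on the log2 scale. The fall to mixed cells was called, at -0.70 ± 0.20 on the log2 scale after TMM scaling (limma, adjusted p = 0.0054) and -0.98 in plain CPM. The call was lost with 5 equal bins by rank, whose cells differ from those of the layers (-0.35, limma adjusted p = 0.129), and with no low-value filter (-0.65, limma adjusted p = 0.0593). From Krt14-dominant to Krt13-dominant cells the change was -0.43 ± 0.20 (limma, adjusted p = 0.061) after TMM scaling and -0.96 in plain CPM (adjusted p = 4.6e-05). It was called in 7 of 19 alternatives, among them without Low F2 (-0.55) and without High F2 (-0.52), and with 1 library left out it ran from -0.55 to -0.16, smallest without High M3 (-0.16) and High F6 (-0.17). The libraries were split in the last step: after TMM scaling Low F2, Low M3 and High F2 were higher in Krt13-dominant than in mixed cells, by 0.93, 0.77 and 1.10 on the log2 scale, and the other 3 were lower, by 0.50, 0.44 and 0.22. The first 3 had medians of 7789, 6080 and 10038 UMIs per kept cell, and Low F6, High M3 and High F6 had 2716, 2357 and 1941. The first 3 also had the higher percentages of cells rich in Sprr2f in the Krt13-dominant layer, given below. The part of either in this split was not tested.

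Dsg2 made up 27.9% of the 3 desmogleins in Krt14-dominant cells (21.4% to 32.3%), 10.2% in mixed cells (5.45% to 14.1%) and 15.8% in Krt13-dominant cells (4.81% to 26.6%), where the family is Dsg1a, Dsg2 and Dsg3. In High F6 the Dsg1a share of mixed cells, 6.55%, was above that of Dsg2, 5.45%. With Dsg1b also counted, an addition made after its values were seen, Dsg2 was 27.7%, 9.77% and 15.4% in the same layers. Dsg1a and Dsg1b together were then 1.01% ± 0.717 of the desmogleins in mixed cells of Low and 11.6% ± 1.56 in those of High, and Dsg3 was 86.8% ± 1.37 and 81.0% ± 0.918 (SD, n = 3). In Krt14-dominant cells the Dsg2 share was 31.3% ± 1.37 in Low and 24.5% ± 2.73 in High (SD, n = 3), with no overlap between the groups. Suprabasal markers in that layer did not overlap either, at sums of 1173 to 1529 CPM in Low and 2005 to 3227 CPM in High, and their part in this share was not tested. In mixed cells the groups overlapped, at 12.2% ± 2.01 against 8.07% ± 2.40. These shares are given without a test.

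Dsg1a, a desmoglein of the upper layers of skin, was at 0, 0.192, 0, 1.51, 1.00 and 4.08 CPM in Krt14-dominant and 1.24, 1.18, 0, 12.6, 3.36 and 32.5 CPM in mixed cells. It was higher in mixed cells in each of the 5 libraries in which it was seen. In Krt14-dominant cells it reached the 1 CPM of the filter in 2 libraries (High M3 was just under it), so it entered the fit through the layers where it is higher, and its changes are a description. The log2 change on the log2(CPM + 1) scale, which understates changes at such levels, was 1.48 ± 0.31 from Krt14-dominant to mixed cells and 1.18 with cells thinned to 1000 UMIs. From Krt14-dominant to Krt13-dominant cells it was 0.74 ± 0.31, and between 0.47 (without High F6) and 0.93 with 1 library left out. That second change was 0.55 in plain CPM and 0.19 with thinned cells, and ran from 0.19 to 1.8 over 19 alternatives. Its near-identical neighbours Dsg1b and Dsg1c can share or lose its reads, so its level is uncertain. Dsc1, a desmocollin of the outer epidermis, had 6 UMIs in Krt14-dominant, 6 in Krt14-leaning, 43 in mixed and 18 in Krt13-dominant cells over all libraries.

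The plaque genes rose together up to the mixed range. Jup, the plakoglobin that binds both kinds of cadherin, was at 276, 236, 229, 314, 174 and 263 CPM in Krt14-dominant, 475, 409, 354, 527, 359 and 658 CPM in mixed and 280, 301, 278, 310, 317 and 599 CPM in Krt13-dominant cells. The mixed values lay above all the Krt14-dominant ones. The log2 change to mixed cells was 1.16 ± 0.08 (limma, adjusted p = 7.1e-12) after TMM scaling and 0.88 in plain CPM, and that to Krt13-dominant cells 0.99 ± 0.08 (limma, adjusted p = 7e-11) and 0.45.

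Dsp was at 769, 706, 713, 764, 672 and 592 CPM in Krt14-dominant, 1108, 1240, 1384, 1174, 1137 and 1105 CPM in mixed and 597, 901, 1018, 480, 1016 and 1244 CPM in Krt13-dominant cells. Again no mixed value overlapped the Krt14-dominant ones, while the Krt13-dominant values of Low F2 and High F2 lay below their own Krt14-dominant values. The log2 change to mixed cells was 1.04 ± 0.12 (limma, adjusted p = 2.7e-08), and that to Krt13-dominant cells 0.79 ± 0.12 (limma, adjusted p = 1.1e-06) after TMM scaling but 0.25 in plain CPM (limma, adjusted p = 0.108).

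Pkp1 and Pkp3 are plakophilins, which gather desmoplakin and cadherins into the plaque. Pkp1 was at 396, 306, 317, 381, 233 and 284 CPM in Krt14-dominant, 618, 532, 478, 586, 375 and 542 CPM in mixed and 347, 354, 402, 319, 294 and 475 CPM in Krt13-dominant cells. Pkp3 was at 97.5, 135, 102, 103, 126 and 62.1 CPM, 124, 166, 140, 145, 161 and 111 CPM, and 91.1, 129, 99.8, 79.9, 122 and 101 CPM in the same layers. Both were highest in mixed cells in 6 of 6 libraries. Their log2 changes to mixed cells after TMM scaling were 0.99 ± 0.07 (limma, adjusted p = 1.4e-11) and 0.74 ± 0.08 (limma, adjusted p = 1.1e-08). To Krt13-dominant cells they were 0.74 ± 0.07 and 0.55 ± 0.08, both called, but in plain CPM 0.20 (limma, adjusted p = 0.056) and 0.01 (limma, adjusted p = 0.91). Pkp1 was 75.1%, 78.1%, 78.3% and 77.6% of Pkp1 plus Pkp3, on average over libraries, from the Krt14-dominant to the Krt13-dominant layer, with an SD over libraries of 4.59 to 6.70. Within libraries this share was higher in mixed than in Krt14-dominant cells in 6 of 6, by 0.967 to 6.92 percentage points, and higher in Krt13-dominant than in Krt14-dominant cells in 5 of 6. No test was made of it.

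From Krt14-dominant to mixed cells, then, 6 of the 8 tested genes other than Dsg1a rose and Dsg2 fell under both scalings, with 42.9% of all genes called after TMM scaling (20.1% higher, 22.8% lower) and 54.2% in plain CPM (12.1% higher, 42.1% lower). Dsc3 was the exception, called lower in plain CPM only.

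The step from mixed to Krt13-dominant cells depended most on the cells and the scaling used. After TMM scaling 4 of 9 genes were called, all lower, against 39% of all genes called (20.6% lower): Dsc3 at -1.08 ± 0.09 (limma, adjusted p = 4.5e-10), Dsc2 at -0.35 ± 0.13 (limma, adjusted p = 0.038), Dsg3 at -0.26 ± 0.08 (limma, adjusted p = 0.0095) and Pkp1 at -0.25 ± 0.07 (limma, adjusted p = 0.0088). In plain CPM 8 were called lower, all but Dsg2, where 43.6% of all genes were called (33.9% lower). Dsg1a is among these 8 and remains a description, since it met the filter through the layers where it is higher. Without Low F2, or without High F2, Dsc3 alone was called (16.2% and 16.1% of all genes lower). Dsc2 was then at -0.26 and -0.18, Dsg3 at -0.21 and -0.18 and Pkp1 at -0.19 and -0.17, and Dsc2 was also not called without High M3 (-0.35) or Low F6 (-0.31). The Dsc2 fall was called in 6 of 19 alternatives, and among those that lost it were no low-value filter (-0.33), summed UMIs (-0.33), cells of 1000 or more genes (-0.28), an axis from 5 keratins (-0.27) and at least 5 (-0.30) or 20 keratin UMIs (-0.28). Dsc3 alone was also called once cells with 1000 or more CPM of Sprr2f were left out (17.6% of all genes lower).

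**Figure D3:**
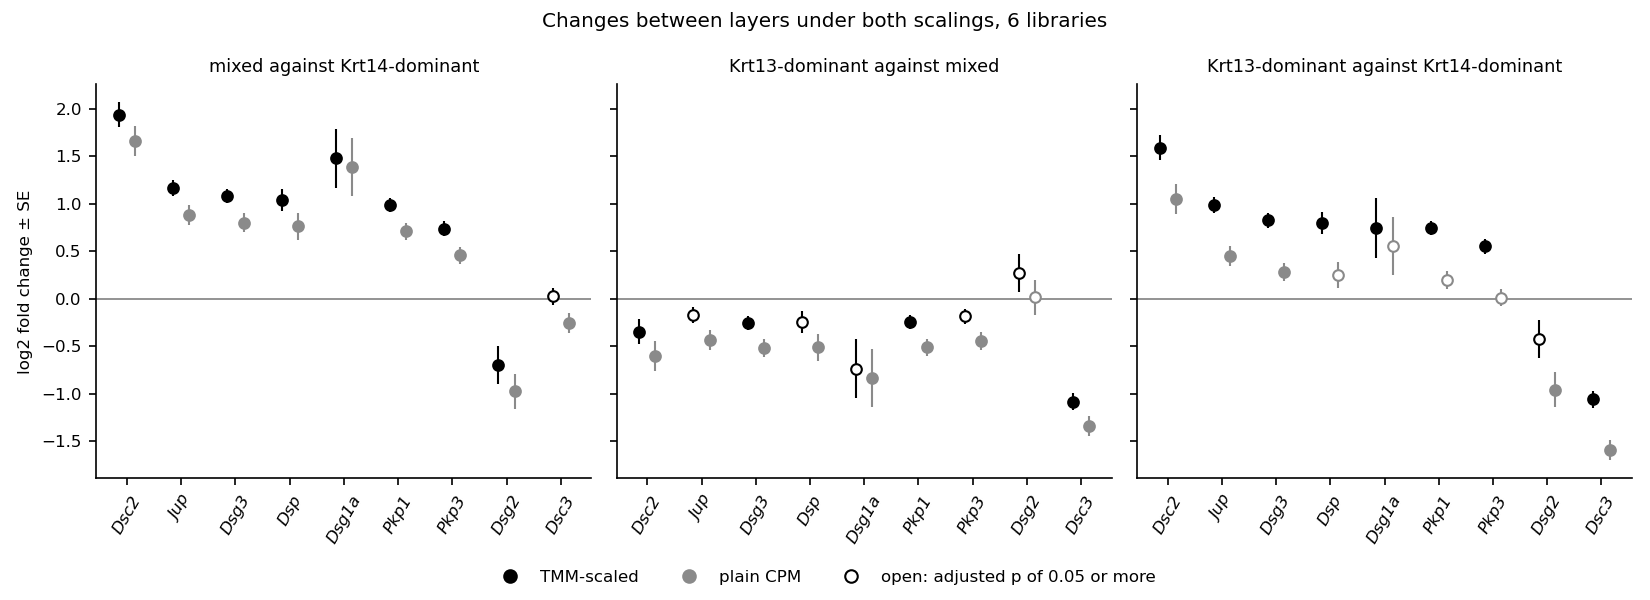
Log2 fold changes ± SE (vertical axes) of the 9 tested genes between mixed and Krt14-dominant (left), Krt13-dominant and mixed (middle) and Krt13-dominant and Krt14-dominant cells (right), over 6 libraries, black after TMM scaling and grey in plain CPM; open points have an adjusted p of 0.05 or more. Dsc2 is highest in the left and right panels, and Dsc3 lies below 0 in the middle and right panels under both scalings.

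Sprr2f encodes a small proline-rich protein of the cornified envelope, and cells rich in it (1000 or more CPM, a split made after seeing the data and given without a test) were 53.7%, 29.2%, 25.9%, 34.5%, 13.6% and 6.35% of the Krt13-dominant layer. Within that layer Dsg3, Dsc2, Pkp1, Pkp3, Jup and Dsp were lower in plain CPM in the Sprr2f-rich cells in 6 of 6 libraries, at median ratios of 0.52, 0.49, 0.50, 0.69, 0.52 and 0.46. Dsc3 had a median ratio of 0.25. Dsg2 was higher in 4 of 6 libraries, with ratios of 1.35, 1.51, 1.00, 1.27, 3.20 and 0.52. The last ratio, that of High F6, rests on 20 Sprr2f-rich cells. These ratios were not TMM-scaled and were not set against those of all genes, so they do not show a fall particular to desmosome genes.

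**Figure D4:**
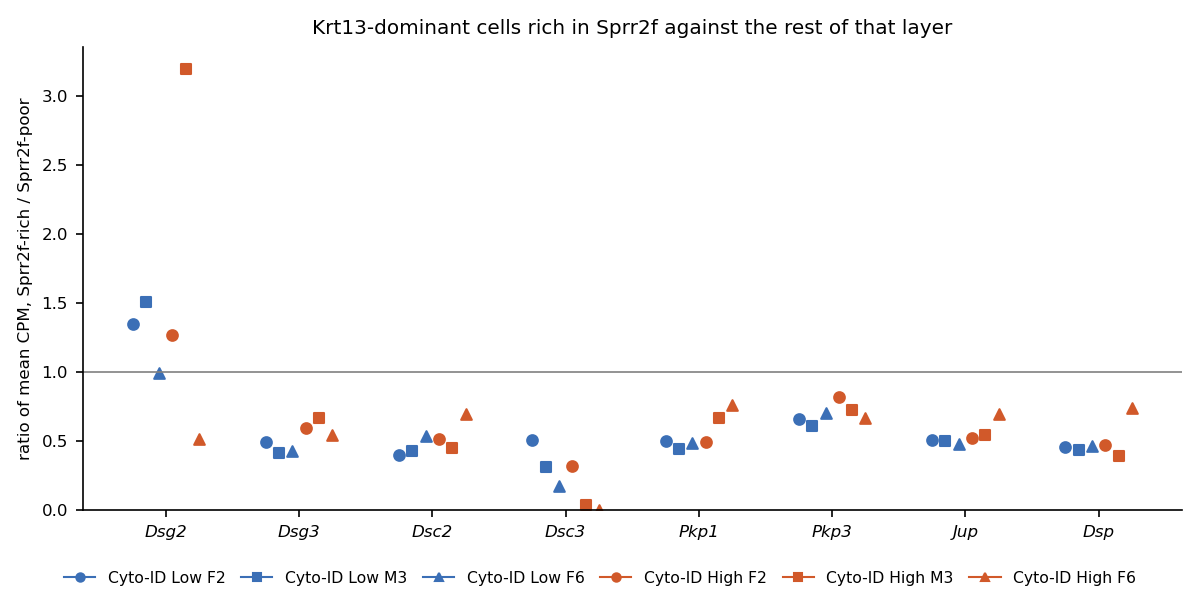
Ratio of mean plain CPM, without TMM scaling, in Sprr2f-rich to Sprr2f-poor cells of the Krt13-dominant layer (vertical axis, linear from 0) for 8 desmosome genes (horizontal axis), 1 point per library. All points of Dsg3, Dsc2, Dsc3, Pkp1, Pkp3, Jup and Dsp lie below 1, and those of Dsg2 run from 0.52 to 3.20.

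Among themselves the genes fell into a block and a pair outside it. Over the 24 library and layer values, with each library's mean subtracted, Dsg3, Dsc2, Pkp1, Pkp3, Jup and Dsp correlated with each other at Pearson r of 0.91 to 0.97. With the genes of that block Dsc3 was at -0.17 to -0.28 and Dsg2 at -0.58 to -0.78, and Dsc3 and Dsg2 were at -0.02 with each other. The values share libraries, layers and depth, so these are descriptions. The genes most like Jup were Upp1 (r = 0.98), Rbp2 and Rnh1, and those most like Pkp1 were Dynll1 (r = 0.99), Pycard and the desmosome gene Perp. Those most like Dsc2 were Rbp2 (r = 0.97), Mpzl2 and Lypd3. Dsc3 was most like the ribosomal protein genes Rps6 (r = 0.99), Rpl23 and Rpl35, and the best match of Dsg2 was weaker, Chrac1 at r = 0.84.

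Other junction genes were read on the same axis, between Krt13-dominant and Krt14-dominant cells, where 28.2% of all genes were called higher and 36.6% lower after TMM scaling. Of 10 other desmosome genes, 6 of the 8 tested rose and 1 fell, with a median log2 change of 1.25 after TMM scaling, beside 0.74 for the 9 genes above and -0.14 for all genes. The cornified-cell adhesion gene Cdsn changed by 5.49 ± 0.21, and periplakin (Ppl) and envoplakin (Evpl), plakins of the cornified envelope, by 4.12 ± 0.11 and 3.71 ± 0.10. Pkp4 fell by 0.83 on the log2 scale. All 7 tight junction genes rose, with a median of 2.20, Cldn7 by 3.59 ± 0.07, Cldn4 by 2.85 and Cldn1 by 2.55. Of 9 adherens junction genes 5 rose, among them Nectin4 (2.35), Afdn (2.12) and E-cadherin, Cdh1 (1.19), and P-cadherin, Cdh3, fell by 0.53, a call lost without Low F2 (-0.31), High F2 (-0.35) or Low M3 (-0.43). Hemidesmosome genes, which anchor basal cells to the matrix, went the other way: 5 of 6 fell, Col17a1 by 3.92, Itgb4 by 3.43 and Itga6 by 2.38, with a median of -2.36. Cd151 was the only one called higher, at 0.30, and was lower in plain CPM, at -0.24. The keratins that define the axis, Krt13 and Krt14, changed by 6.01 and -2.24 by construction. In plain CPM, where 15.4% of all genes were called higher and 58.6% lower, the counts were 6 higher and 1 lower for the other desmosome genes, 7 and 0 for the tight junction, 5 and 4 for the adherens junction and 0 and 6 for the hemidesmosome genes.

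None of the 9 tested genes passed the threshold between Cyto-ID High and Cyto-ID Low libraries in all cells, where 0.163% of 11645 genes (19, all higher in High) were called by limma. At an unadjusted p under 0.05 limma counted 941 genes, and with the replicate label as a block it called 64 (0.55%), again with none of the 9 among them. Dsg1a was at 0.414, 0.372 and 0 CPM in Low and at 3.04, 1.66 and 9.80 CPM in High, from 19, 14 and 0 UMIs against 167, 28 and 118. The groups did not overlap, and High varied widely. The number of all genes without overlap was not counted. Since Dsg1a met the low-value filter in the High libraries alone, its log2 difference of 2.03 ± 0.47 is a description. Dsc3 was at 101, 86.1 and 76.5 CPM in Low and at 162, 94.6 and 143 CPM in High. High was above Low in 3 of 3 replicate labels, though the groups overlapped, and the log2 difference was 0.69 ± 0.23 (limma, adjusted p = 0.528, and 0.187 with the replicate label as a block). For the other 7 it lay between -0.13 (Dsg2) and 0.38 (Dsc2), with adjusted p of 0.79 or more.

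Within layers again none was called, against 0.274% of genes in Krt14-dominant, 0.312% in Krt14-leaning, 0.413% in mixed and 0% in Krt13-dominant cells. Dsg1a in mixed cells, at the levels given above, differed by 3.02 ± 0.63 on the log2 scale (limma, adjusted p = 0.0871; 0.4 with no low-value filter). Here too it met the filter through its High values, so the difference is a description, and so are the adjusted p of 0.0394 with the replicate label as a block, a fit that called 1.11% of genes, and the 0.0029 without High M3. Dsc3 differed by 0.61, 0.59, 0.87 and 0.80 on the log2 scale from the Krt14-dominant to the Krt13-dominant layer, with limma adjusted p of 0.54, 0.78, 0.34 and 0.98. Limma with the replicate label as a block gave adjusted p of 0.24, 0.40, 0.089 and 0.50. In the Krt13-dominant layer the Low and High libraries of Dsc3 did not overlap in plain CPM, and neither did those of Jup (286 ± 13.1 and 409 ± 165 CPM). In the Krt14-leaning layer those of Dsp did not overlap, with High lower. How many of all genes lack overlap was not counted. The squamous markers of the Krt13-dominant layer did not overlap either, at 4024 to 4385 CPM in Low and 2529 to 3494 CPM in High. The percentage of Sprr2f-rich cells given above was lower in High for each replicate label. Apart from those cells Dsc3 was at 39.2 ± 4.20 CPM in Low and 64.0 ± 10.7 in High, without overlap, and within them at 13.4 ± 7.76 and 7.79 ± 11.7 (SD, n = 3), with High above Low in 0 of 3 labels. The groups of Jup overlapped apart from those cells, at 351 ± 29.4 and 440 ± 149 CPM, with High above Low in 1 of 3 labels. Within them Jup was at 176 ± 19.9 and 270 ± 138 CPM, with High above Low in 3 of 3 labels but the groups overlapping. Marker sums also moved with the groups. Proliferation markers were at 53.0 to 148 CPM in Low and 175 to 220 CPM in High over all cells, did not overlap in Krt14-dominant cells (at most 214 and at least 229.8 CPM), and overlapped in mixed cells (55.7 to 88.6 and 69.6 to 81.2 CPM). In Krt14-dominant cells the superficial markers were at 65.6 CPM or less in Low and 91.6 to 162 CPM in High, and the suprabasal markers were apart as given above. In mixed cells the squamous markers were at 5805 to 6652 CPM in Low and 3725 to 4656 CPM in High. Their part in these values was not tested.

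**Figure D5:**
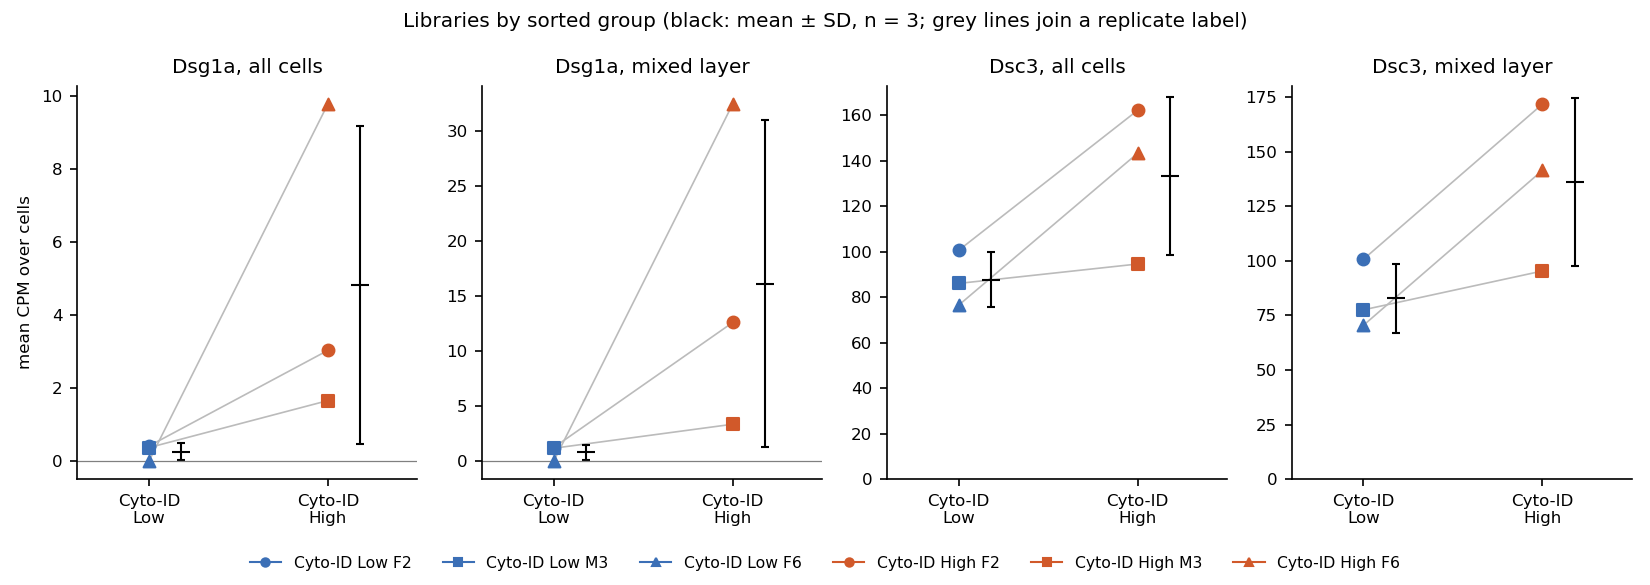
Mean CPM over cells (vertical axes, linear from 0) of Dsg1a and Dsc3 in all cells and in the mixed layer for the Cyto-ID Low and Cyto-ID High libraries, with grey lines joining libraries of the same replicate label and black bars for the mean ± SD (n = 3). Dsg1a is above 1 CPM in each High library and below 1 CPM in each Low library over all cells, and Dsc3 is higher in High for each label.

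Dsg1b, a close copy of Dsg1a, had the same order of groups. It was at 1.08, 1.18 and 0.149 CPM in Low and 10.7, 9.95 and 12.9 CPM in High, a log2 difference of 2.90 ± 0.28. One Low library, F6, was below the 1 CPM of the filter and the other Low libraries were just above it, so this gene too was tested on the strength of its High values and the difference is a description. It was 4.07 with a pseudocount of 0.1 CPM, 2.87 with no low-value filter and 2.49 without both F6 libraries. In mixed cells it was at 3.97, 3.59 and 1.05 CPM in Low and 40.1, 23.0 and 35.8 CPM in High (3.36 ± 0.37 on the log2 scale, limma adjusted p = 0.0016), a call lost with no low-value filter (3.35, adjusted p = 0.0593) and without both F6 libraries (2.87, adjusted p = 0.0821). The groups did not overlap in either, though how many of all genes lack overlap was not counted. In Krt13-dominant cells the difference was 2.97 ± 0.60 and was not called (limma, adjusted p = 0.45). Below the mixed range the summed share of Dsg1a and Dsg1b, an addition made after the values were seen, is a description without a test. Dsg1a and Dsg1b together were 0.106% ± 0.0944 of the desmogleins in Low and 2.59% ± 0.574 in High in Krt14-dominant cells. In Krt14-leaning cells they were 0.305% ± 0.267 and 6.56% ± 2.43. Dsg1c was at 0 throughout. How the authors' counting treated reads shared by these copies is not given in the sources used here, so their levels are uncertain.

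The change along the axis was also compared between the groups, as the difference of each library's Krt13-dominant to Krt14-dominant log2 change. None of the 9 genes, and 0 of all 12660 genes, passed the threshold in limma (735 at an unadjusted p under 0.05). The limma estimates for the desmosome genes ran from -0.70 ± 0.53 for Dsg2 (adjusted p = 0.86) to 0.75 ± 0.53 for Dsg1a (adjusted p = 0.84), in the direction High minus Low. With 1 library left out Dsg2 ran from -1.32 (without High F2) to -0.39 (without High M3), and Dsg1a from 0.206 to 1.31. Intervals of this width do not show that the groups were alike.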

How the data were processed

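Single cells of mouse esophageal organoids were measured in 6 libraries, 3 sorted as Cyto-ID Low and 3 as Cyto-ID High. Per the submitters' processing notes, reads were handled with Cell Ranger 6.0.0 and Seurat 4 on mm10 (GRCm38); which step each tool made is not given in the sources used here. The authors deposited natural log values, ln(1 + UMIs per 10000), and 100% of them gave back whole UMIs, at most 5.6e-11 from a whole number. From these the mean CPM over cells was computed per library and layer, scaled by TMM (trims of 30% and 5%) and compared as log2(CPM + 1) with limma 3.58.1 (R 4.3.3), Benjamini-Hochberg adjustment over all genes and a threshold of 0.05. Genes needed 1 CPM in at least 3 samples. Exact permutation tests used scipy 1.17.1 (Python 3.11.15). No doublet caller was run and no doublets were removed. Free RNA was not corrected. Count models had been planned but were not used on this log unit, and limma on summed UMIs, added after seeing the data, took their place. The scripts were tested on simulated data. No label states that the replicate labels pair the libraries, and the main fits did not use them so. The layer fits took the 6 libraries as separate. Deviations from the group means correlated within a label at r = 0.76 (F2), 0.57 (M3) and 0.14 (F6) over 8876 genes. Low F2 and High F6, of different labels, were at 0.17, so these values do not show the F6 pairing. All 10 desmosome genes were named, and from each other list up to 3 genes called in each direction with the largest change. The 10 genes and the lists were chosen with earlier results of these data known. Gene positions come from GENCODE M21 (GRCm38). The alternatives tried are given in the closing section.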

Additional observations from a re-analysis of the deposited data

Results flagged for a closer look

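Dsc3 was flagged because its log2 change from Krt14-dominant to mixed cells had one sign in every Low library and the other in every High library. After TMM scaling it was -0.05, -0.05 and -0.21 in Low F2, M3 and F6, and 0.19, 0.23 and 0.04 in High F2, M3 and F6, a difference of 0.256 between the group means. In plain CPM all 6 were negative, at -0.33, -0.34 and -0.46 in Low and -0.08, -0.14 and -0.18 in High, so the split in sign is one of the TMM-scaled values. The difference between the groups was not tested.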

How the results depend on the processing

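In 19 alternatives Dsc2, Dsg3, Jup and Dsc3 kept their direction and call between Krt13-dominant and Krt14-dominant cells. In plain CPM 5 desmosome genes were called there in place of 8 (74% and 64.8% of all genes), and leaving out 1 library gave 7 to 9 (59.2% to 66.1% of all genes). Over the 19 alternatives the count ran from 5 to 10, where 35.5% to 74% of all genes were called. A count of 10 includes Dsc1. These counts hold Dsg1a wherever it was called. Between Krt13-dominant and mixed cells the count, 4 where 39% of all genes were called, became 8 in plain CPM (43.6% of all genes), 8 with cuts at 0.05, 0.5 and 0.8 (33.7%), 7 without both F6 libraries (43.4%), 1 with cells thinned to 1000 UMIs (11.2%), 1 with 5 equal bins by rank (37.3%) and 1 without Sprr2f-rich cells (33.2%), and 1 to 4 with 1 library left out (31.9% to 41.7%). Those 5 bins hold other cells than the layers: bin 5 stood for Krt13-dominant, bin 4 for mixed and bin 1 for Krt14-dominant cells. From bin 4 to bin 5 the log2 changes had the other sign for Dsg1a (0.0915), Dsg2 (-0.0233), Dsc2 (0.0445), Pkp3 (0.0884), Jup (0.0799) and Dsp (0.0208). Of the 7 genes called without both F6 libraries, 6 were lower in Krt13-dominant than in mixed cells. The other, Dsg2, was higher (0.617, limma adjusted p = 0.0377). From Krt14-dominant to mixed cells Dsc3 turned in plain CPM (-0.25), with summed UMIs (-0.0025), with the other cuts (-0.13) and with 5 keratins as the axis (-0.13), and Cd151 turned in plain CPM between the outer layers (-0.24).

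Between Cyto-ID groups 0 desmosome genes were called in all cells under any of 15 alternatives. Within layers the replicate block gave 1 call (Dsg1a, mixed, with 1.11% of all genes called), as did leaving out High M3 (0.593%), and the range with 1 library left out was 0 to 1. Dsg1a met the low-value filter through its High values, so neither is a test of the groups. The block changed no other call of a desmosome gene. Estimates that were never called turned sign in all cells: with 1 library left out the range was -0.357 to 0.165 for Dsg2 (the latter without High M3), -0.012 (without High F6) to 0.525 for Dsg3, -0.0322 (without High F6) to 0.655 for Dsc2 and -0.128 to 0.053 (without High M3) for Pkp1. Pkp3 turned with cells of 1000 or more genes (0.0069), with thinned cells (0.11), without both F6 libraries (0.14) and without High F2, Low M3 or High F6 (range with 1 library left out -0.253 to 0.142). Dsp turned with summed UMIs (0.0049), with cells of 1000 or more genes (0.0542), without both F6 libraries (0.107) and without High F2, Low F6 or High F6 (range -0.118 to 0.0846). The difference of the axis change for Dsg1a turned with a pseudocount of 0.1 CPM (-0.0083) and with thinned cells (-0.49). High minus Low in percent of placed cells, 6.12 for the Krt14-dominant layer, was 1.69 without High F2 to 9.77 without High M3. For the Krt13-dominant layer, at -9.04, it ran from -12.5 to -4.19 over the alternatives. The difference turned for the Krt14-leaning layer with cells of 1000 or more genes (-0.076), without Sprr2f-rich cells (-0.074) and with 1 library left out (-0.50 to 2.51). For the mixed layer it turned with the other cuts (-0.35) and with 5 keratins (-0.74), and was 0.189 to 4.95 with 1 library left out. The cause of these changes was not tested. The planned edgeR and DESeq2 alternatives were not run. Dsc1, below the low-value filter in the main fits, was not tested there, and Low F6 had no UMI of Dsg1a or Dsc1. Any call of Dsc1 in the alternatives rests on few UMIs, 73 over all cells.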
